A study of Mus musculus with 8 samples.

Results

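The antibody constant region genes Igha, Ighg1, Ighg2b, Ighg2c, Ighg3, Igkc, Iglc1 and Iglc2 were examined together with Jchain and Pigr, whose products join and carry antibodies, in colon RNA from mice with colitis. These 10 genes were taken by name from a table of 53465 genes, and all 10 had a mean of at least 3 on the log2 scale used, the minimum for testing. The table holds messenger RNA levels of 8 mice. Of these, 4 were wild type for Arg1, the gene of arginase 1, which splits arginine, and 4 carried a conditional deletion of Arg1 (Arg1 ko). All were littermates on the B6 background, 7 to 12 weeks old, matched for age and sex and kept free of specific pathogens. All had received 2.5% dextran sulfate sodium (DSS), which injures the colon epithelium, in drinking water for a week, then plain water until day 10, and untreated colon was not analysed here. The labels do not name the Cre line or the cells in which Arg1 was deleted. Colon is given as the tissue. By the protocol, Peyer's patches were removed and aggregates of epithelium were shaken loose in 30 mM EDTA.

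Each value is a regularised log2 value (rlog), a count scaled for library size and drawn toward the mean of its gene, so a difference of 1 stands for 2-fold before shrinkage. The depth of the libraries is unknown. In bulk RNA, fewer cells of a type and less RNA per cell cannot be told apart. Arg1 itself stood at 5.59, 5.57, 5.02 and 5.58 in wild type libraries 1 to 4 and at 5.06, 4.87, 5.15 and 5.19 in Arg1 ko libraries 1 to 4. One wild type value lay within the Arg1 ko range, so its library is written as the library labelled wild type 3. Arg1 differed by -0.37 (limma adjusted p = 0.522). The epithelial genes Car1, a carbonic anhydrase, and Muc2, the main gel-forming mucin, were among the highest in the table, with means of 17.94 and 17.11 in wild type and 18.07 and 17.18 in Arg1 ko. The genotypes carry separate runs of sample numbers, so a difference in handling between those runs and the genotype cannot be told apart.

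An antibody consists of paired heavy and light chains. The heavy chain constant gene sets the class (Igha for IgA, the Ighg genes for the IgG subclasses), and a B cell changes class by joining its variable region to another constant gene downstream. In the gut wall most plasma cells make IgA. J chain links IgA monomers into dimers, and the polymeric immunoglobulin receptor, encoded by Pigr in epithelial cells, takes these dimers from the tissue side to the lumen, where they are released with a piece of the receptor. IgG is not carried by this receptor.

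The 5 heavy chain genes lie in a row on the minus strand of chromosome 12 (GRCm38, GENCODE vM21). In the order of transcription they are Ighg3 (chr12:113356224-113361232), Ighg1 (chr12:113325240-113330523), Ighg2b (chr12:113302965-113307933), Ighg2c (chr12:113285325-113288932) and Igha (chr12:113254830-113260236). The hinge, a flexible stretch between the arms and the stem of the antibody, is an exon of its own in the IgG genes, and the subclasses are known to differ strongly in it. The 4 hinge exons are shown because the counts of near-identical genes depend on such differences. Each is exon 2 of its transcript, written 5′ to 3′ on the coding strand. Capitals mark the longest stretch shared exactly with another IgG hinge.
Ighg1 hinge, 39 bases (chr12:113329844-113329882): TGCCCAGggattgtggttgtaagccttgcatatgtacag
Ighg2b hinge, 66 bases (chr12:113307261-113307326): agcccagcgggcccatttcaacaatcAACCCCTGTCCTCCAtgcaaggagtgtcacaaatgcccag
Ighg2c hinge, 63 bases (chr12:113288263-113288325): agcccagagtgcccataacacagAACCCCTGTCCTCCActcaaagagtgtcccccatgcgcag
Ighg3 hinge, 48 bases (chr12:113360529-113360576): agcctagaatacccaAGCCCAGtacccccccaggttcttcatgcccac
The Ighg2b and Ighg2c hinges shared 15 bases, whereas those of Ighg1 and Ighg3 shared no more than 7 bases with another hinge. The stretch marked in Ighg1 occurs in Ighg2b, and that marked in Ighg3 opens both the Ighg2b and the Ighg2c hinge. Over the whole transcript, Ighg2b and Ighg2c had 1 exact run of 78 bases in common, and 5.26% of the 50-base windows of Ighg2b also occurred in another gene. Ighg1 and Ighg2b shared at most 37 bases, and no 50-base window of Igha, Ighg1, Ighg3, Igkc, Iglc1 or Jchain occurred elsewhere in the transcripts. No source used here gives the read length or the treatment of reads that match several genes, so a part of the Ighg2b and Ighg2c counts may be exchanged between them.

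The tailpiece at the end of the IgA heavy chain, which IgG lacks, takes part in binding J chain. The last 66 coding bases of Igha and of Ighg1 are shown with the second-last codon before the stop in capitals.
Igha (chr12:113258768-113258833): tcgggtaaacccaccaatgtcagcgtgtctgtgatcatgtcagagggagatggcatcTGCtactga
Ighg1 (chr12:113328976-113329041): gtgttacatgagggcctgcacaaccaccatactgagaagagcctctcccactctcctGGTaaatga
That codon is TGC in Igha, which encodes the cysteine of the IgA tailpiece through which J chain is bonded, and GGT, a glycine codon, in Ighg1 and likewise in Ighg2b, Ighg2c and Ighg3.

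The light chain constant genes lie on other chromosomes, Igkc for the kappa chain at chr6:70726435-70726966 and the lambda genes Iglc1 and Iglc2 at chr16:19061618-19062071 and chr16:19198396-19200351. The lambda genes are close copies, so the first 90 bases of their constant exons are shown. Capitals mark bases that differ from Iglc2, with Iglc3 and Iglc1 aligned from the base after the first of Iglc2.
Iglc2 (chr16:19198764-19198853): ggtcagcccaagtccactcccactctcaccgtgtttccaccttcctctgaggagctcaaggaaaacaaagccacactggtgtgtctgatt
Iglc3 (chr16:19065592-19065681): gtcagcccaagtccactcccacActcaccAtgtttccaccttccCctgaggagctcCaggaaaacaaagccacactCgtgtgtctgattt
Iglc1 (chr16:19061982-19062071): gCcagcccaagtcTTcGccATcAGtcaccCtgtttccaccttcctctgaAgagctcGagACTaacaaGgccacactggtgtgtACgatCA
Iglc3 differed from Iglc2 at 5 of these bases and Iglc1 at 19. Of the 50-base windows of Iglc2, 10.5% also occurred in Iglc3, so a part of the Iglc2 counts may be exchanged with Iglc3. How large that part is cannot be told from the values. Jchain lies at chr5:88519809-88527891 and Pigr at chr1:130826684-130852249, and 1.74% of the 50-base windows of Pigr also occurred in other genes.

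No difference between Arg1 ko and wild type was detected in any of the 10 genes. In limma, 0 of 10 passed an adjusted p of 0.05, against a background of 0% of the 16380 genes tested, and 0 of 10 had an unadjusted p under 0.05, against 9.1% of all genes. The genotypes overlapped for all 10, whereas they did not overlap for 4.03% of all genes. The differences, Arg1 ko minus wild type, ran from -0.50 for Ighg2c to 0.02 for Jchain, with 3 genes higher and 7 lower and a median of -0.07, beside 0.0064 over all genes tested. What the genes did show was a wide spread between libraries, larger in wild type than in Arg1 ko for all 10, as it was for 90.9% of all genes.

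**Figure D1:**
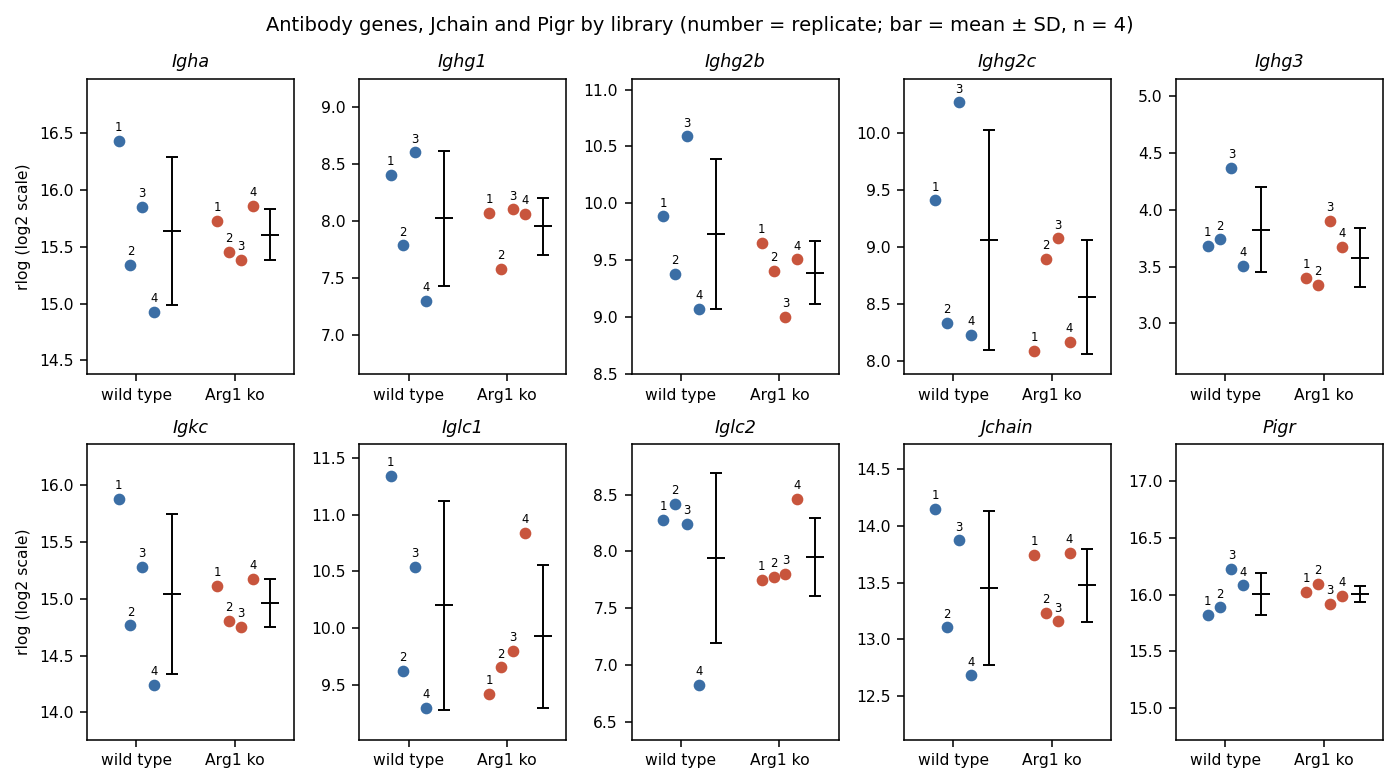
Regularised log2 value (rlog, vertical axis) of each of the 10 genes in the 4 wild type and 4 Arg1 ko libraries, with the mean and SD of each genotype. The genotypes overlap in every panel, the wild type points are the more spread, and Pigr varies least.

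Igha was the most abundant antibody heavy chain messenger by far. Its rlog was 16.43, 15.34, 15.85 and 14.92 in wild type libraries 1 to 4 and 15.73, 15.45, 15.38 and 15.86 in Arg1 ko libraries 1 to 4. The 4 Arg1 ko values all lay inside the wild type range, which wild type 1 bounded above and wild type 4 below, and these 2 libraries differed 2.84-fold. The wild type mean was 15.64 ± 0.65 and the Arg1 ko mean 15.61 ± 0.22 (SD, n = 4 each), and the difference was -0.03 (SE 0.29, limma adjusted p = 0.966, exact permutation p = 0.914). The 95% limma interval ran from -0.67 to 0.61, or 0.627-fold to 1.52-fold, so changes within those bounds were not excluded with 4 libraries a group. The interval is for this gene alone and is not a limit of detection. The smallest two-sided p that the 70 assignments of libraries allow is 0.0286.

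The light chain of most mouse antibodies is kappa. Igkc stood at 15.88, 14.77, 15.28 and 14.24 in wild type and at 15.12, 14.81, 14.75 and 15.18 in Arg1 ko. Its order over the libraries was close to that of Igha, with wild type 1 highest, wild type 4 lowest and all Arg1 ko values in between. The difference was -0.08 (SE 0.30, limma adjusted p = 0.917), with a 95% interval of -0.75 to 0.59.

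Iglc1 was the higher of the lambda genes. It measured 11.34, 9.63, 10.54 and 9.30 in wild type and 9.42, 9.65, 9.80 and 10.84 in Arg1 ko. Wild type 1 and Arg1 ko 4 were the highest of their genotypes, and the highest and lowest libraries, wild type 1 and 4, differed 4.11-fold. Iglc2 measured 8.28, 8.42, 8.24 and 6.82 in wild type and 7.75, 7.78, 7.80 and 8.46 in Arg1 ko, so wild type 4 was low and Arg1 ko 4 high while the other 6 libraries lay between 7.75 and 8.42. Neither lambda gene passed the test. The difference was -0.27 (SE 0.44, limma adjusted p = 0.796) for Iglc1 and 0.01 (SE 0.33, limma adjusted p = 0.991) for Iglc2.

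Jchain, which links IgA into dimers, read 14.15, 13.11, 13.87 and 12.69 in wild type and 13.75, 13.24, 13.16 and 13.76 in Arg1 ko. Again wild type 1 was highest and wild type 4 lowest, and the Arg1 ko libraries fell within the wild type range. The means were 13.45 ± 0.68 and 13.48 ± 0.32 (SD, n = 4 each), a difference of 0.02 (SE 0.30, limma adjusted p = 0.977, 95% interval -0.65 to 0.69).

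Among the IgG subclasses, Ighg2b and Ighg2c were the higher and Ighg3 was near the lower limit of the genes tested. Ighg2b read 9.88, 9.38, 10.59 and 9.07 in wild type and 9.65, 9.40, 9.001 and 9.51 in Arg1 ko. Ighg2c, the form of IgG2 that B6 mice carry, read 9.41, 8.33, 10.27 and 8.22 in wild type and 8.09, 8.90, 9.07 and 8.17 in Arg1 ko. In both genes the library labelled wild type 3 was the highest of all 8, by 0.71 over the next for Ighg2b and by 0.86 for Ighg2c. Ighg2c had the widest range of the 10 genes, 4.55-fold between its highest and lowest library.

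Ighg1, the subclass linked to type 2 responses, stood at 8.41, 7.79, 8.61 and 7.30 in wild type and at 8.07, 7.58, 8.10 and 8.06 in Arg1 ko. Ighg3 stood at 3.68, 3.74, 4.37 and 3.51 in wild type and at 3.40, 3.34, 3.90 and 3.68 in Arg1 ko. The library labelled wild type 3 was the highest for these as well. Only 5.63% of the genes tested had a lower mean than Ighg3, so its differences are drawn toward 0 more than those of the other genes.

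The differences between genotypes in the IgG genes were all below 0 and all within the spread. The difference was -0.50 (SE 0.43, limma adjusted p = 0.626, 95% interval -1.46 to 0.46) for Ighg2c and -0.34 (SE 0.29, limma adjusted p = 0.623, 95% interval -0.98 to 0.30) for Ighg2b. For Ighg3 it was -0.24 (SE 0.20, limma adjusted p = 0.607) and for Ighg1 -0.07 (SE 0.27, limma adjusted p = 0.915). With the library labelled wild type 3 left out, these 4 differences became -0.10, -0.06, -0.06 and 0.12, and the median over the 10 genes turned from -0.07 to 0.02. In that comparison 0 of 10 passed an adjusted p of 0.05, while 6.18% of 16371 genes did.

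Pigr, the transport receptor, varied least of the 10 between libraries. It read 15.82, 15.89, 16.23 and 16.08 in wild type and 16.02, 16.09, 15.92 and 15.99 in Arg1 ko. All 8 libraries lay within 1.33-fold of each other, and the library labelled wild type 3 was the highest. The SD over the 8 libraries was 0.13, smaller than that of most genes: 17.4% of the genes tested had a smaller one. For the 9 antibody and J chain genes the SD was 0.33 to 0.76, and between 82.0% and 99.4% of genes had a smaller one. The means were 16.003 ± 0.19 and 16.0045 ± 0.07 (SD, n = 4 each), with a difference of 0.0013 (SE 0.14, limma adjusted p = 0.997). The 95% interval, 0.809-fold to 1.24-fold, was the narrowest of the 10.

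**Figure D2:**
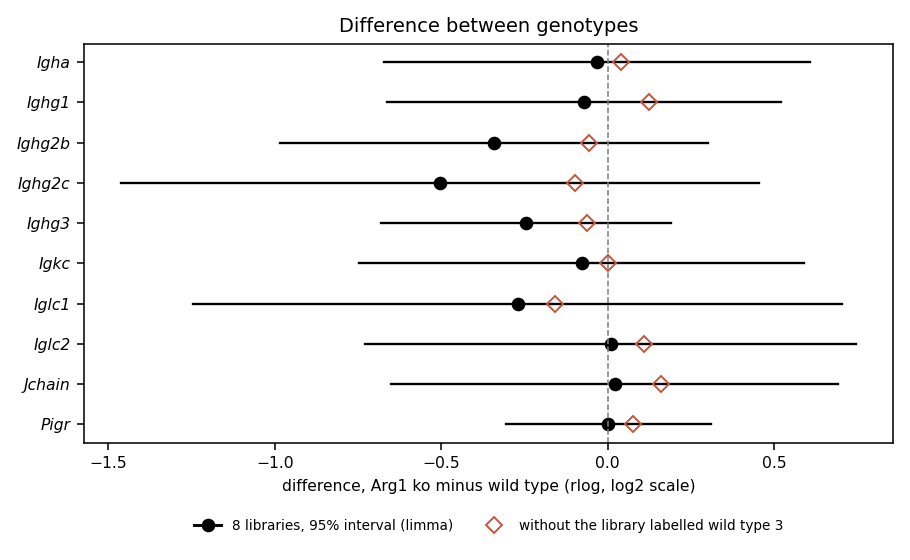
Difference between Arg1 ko and wild type (log2 scale, horizontal axis) for each of the 10 genes with its 95% limma interval, with all 8 libraries and without the library labelled wild type 3. Every interval spans 0. Ighg2c and Ighg2b lie farthest below 0 with all libraries, and Ighg2c, Ighg2b and Ighg3 move toward 0 without that library while Ighg1 moves to the other side of 0.

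Levels of different genes were compared per kilobase of transcript (rlog minus the log2 of the length in kilobases), since longer transcripts collect more reads. On this scale Igkc was highest at 15.91 ± 0.48 (SD, n = 8), followed by Igha at 15.48 ± 0.45, Pigr at 14.06 ± 0.13, Jchain at 12.99 ± 0.49 and Iglc1 at 11.20 ± 0.74. Each of these was above the next in all 8 libraries. Below them came Ighg2b at 9.40 ± 0.50, Iglc2 at 9.07 ± 0.54 and Ighg2c at 8.66 ± 0.76, which were above the next gene in 5, 6 and 7 of the 8 libraries and so were not separated beyond their spread. Ighg1 at 7.88 ± 0.43 was above Ighg3 at 3.59 ± 0.33 in all 8. With the length of all annotated exons in place of 1 transcript the means of the first 5 kept their order. Ighg2b then fell below Iglc2 and Ighg2c. Igha at 14.21 and Pigr at 13.99 came closer than the SD of Igha (0.45), so their separation depends on the length used.

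**Figure D3:**
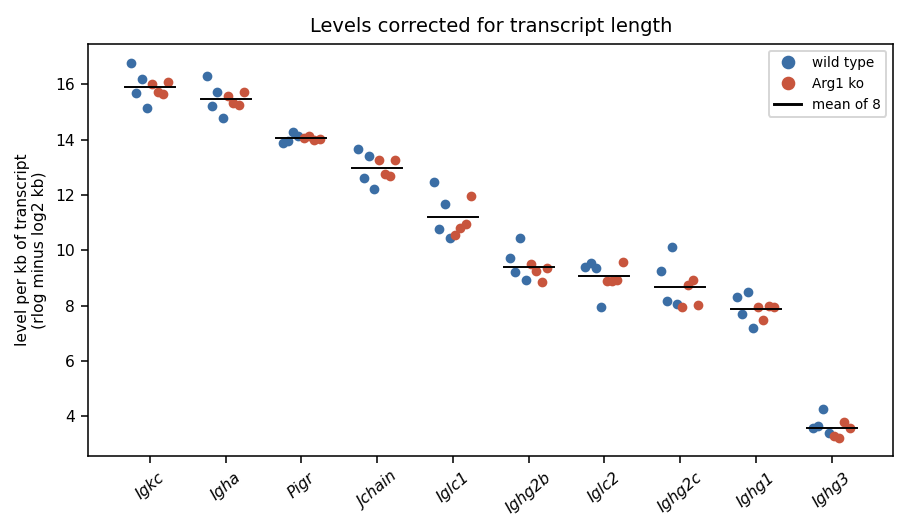
Level per kilobase of transcript (rlog minus log2 of the length in kilobases, vertical axis) of the 10 genes, with 1 point per library. Igkc and Igha lead, Pigr and Jchain follow, and the IgG genes lie lower, with Ighg3 lowest.

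On the linear scale of these length-corrected values, Igha made up 97.8%, 97.2%, 94.9% and 96.9% of the summed level of Igha and the 4 IgG genes in wild type and 97.6%, 97.1%, 97.0% and 97.9% in Arg1 ko. The lowest share was that of the library labelled wild type 3. Kappa made up 93.5% to 97.1% of the summed level of Igkc, Iglc1 and Iglc2. Within IgG, Ighg2b took 37.9% to 58.8% of the level, Ighg2c 20.0% to 39.97%, Ighg1 12.6% to 21.2% and Ighg3 0.663% to 1.157%. With exon-union lengths the median share of Ighg2c rose to 48.5%, so the order of Ighg2b and Ighg2c within IgG depends on the length used.

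Whether the classes shifted against each other was asked with 9 log2 ratios formed within each library as the difference of 2 rlog values. These ratios are not corrected for length, so their level says nothing of which gene is higher per kilobase; length cancels in the difference between genotypes. None passed (exact permutation of the 70 assignments, adjusted over the 9 ratios, p from 0.771 to 0.943). The smallest p that the 70 assignments allow is 0.0286, and adjustment over 9 ratios raises it. A single shifted ratio could therefore not pass, so this test cannot decide whether a class shifted alone. The Igha to Ighg2b ratio was 6.55, 5.96, 5.26 and 5.85 in wild type and 6.08, 6.05, 6.38 and 6.35 in Arg1 ko, a difference of 0.31 (exact permutation p = 0.314). The Igha to Ighg2c ratio was 7.02, 7.01, 5.58 and 6.70 in wild type and 7.64, 6.55, 6.31 and 7.69 in Arg1 ko, a difference of 0.47 (exact permutation p = 0.4). In both ratios the lowest value of the 8 was that of the library labelled wild type 3, and Arg1 ko 1 and 4 had the highest Igha to Ighg2c ratios.

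The ratios of Igha to its partners varied far less than the genes themselves. The Igha to Igkc ratio was 0.55, 0.58, 0.57 and 0.68 in wild type and 0.61, 0.64, 0.63 and 0.68 in Arg1 ko, with an SD of 0.05 over the 8 libraries, while Igha and Igkc alone had SDs of 0.45 and 0.48. The Igha to Jchain ratio lay between 1.98 and 2.28, with an SD of 0.12. The Igha to Pigr ratio spanned -1.156 (wild type 4) to 0.61 (wild type 1). Its SD over the 8 libraries was 0.50, no smaller than the 0.45 of Igha alone.

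Across the 8 libraries, Igkc and Jchain followed Igha closely. Pearson's r with Igha was 0.996 for Igkc (exact permutation over pairings, adjusted over 9 relations, p = 0.000893) and 0.970 for Jchain (exact permutation, adjusted p = 0.00234). Spearman's rho was 0.952 (exact permutation, adjusted p = 0.00513) and 0.976 (exact permutation, adjusted p = 0.00357). Without wild type 1 and wild type 4, the 2 libraries farthest from the Igha median, r was 0.984 for Igkc and 0.985 for Jchain over 6 libraries (exact permutation p = 0.00833 each). After subtracting each genotype's mean, r was 0.998 and 0.972. With 4 libraries, neither genotype held enough for a coefficient of its own.

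For the other light and heavy chain genes the relation to Igha was looser. For Iglc1, r was 0.870 (exact permutation, adjusted p = 0.00722; rho 0.833, adjusted p = 0.0461), and for Ighg1, r was 0.809 (exact permutation, adjusted p = 0.0345; rho 0.667, adjusted p = 0.150). Without wild type 1 and 4 these fell to 0.696 and 0.662 (exact permutation p = 0.161 and 0.176) over 6 libraries. Leaving out 1 library at a time, the Iglc1 relation lost its call only without wild type 1 (r = 0.741, exact permutation, adjusted p = 0.105). The Ighg1 relation kept its call only without the library labelled wild type 3 or without Arg1 ko 3, and its r was lowest without wild type 4 (0.677, exact permutation, adjusted p = 0.213). For Ighg2b, r was 0.656 (exact permutation, adjusted p = 0.122; rho 0.810, adjusted p = 0.0490), and it was 0.876 without the library labelled wild type 3. The remaining coefficients were 0.676 for Iglc2, 0.439 for Ighg2c and 0.231 for Ighg3, and none passed (exact permutation, adjusted p from 0.122 to 0.571).

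For Pigr no relation to Igha was detected. Its r was -0.281 (exact permutation, adjusted p = 0.570; rho -0.143, adjusted p = 0.840). Without wild type 1 and 4 the coefficient was 0.607 (exact permutation p = 0.214), so not even its sign was settled by these 8 libraries.

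**Figure D4:**
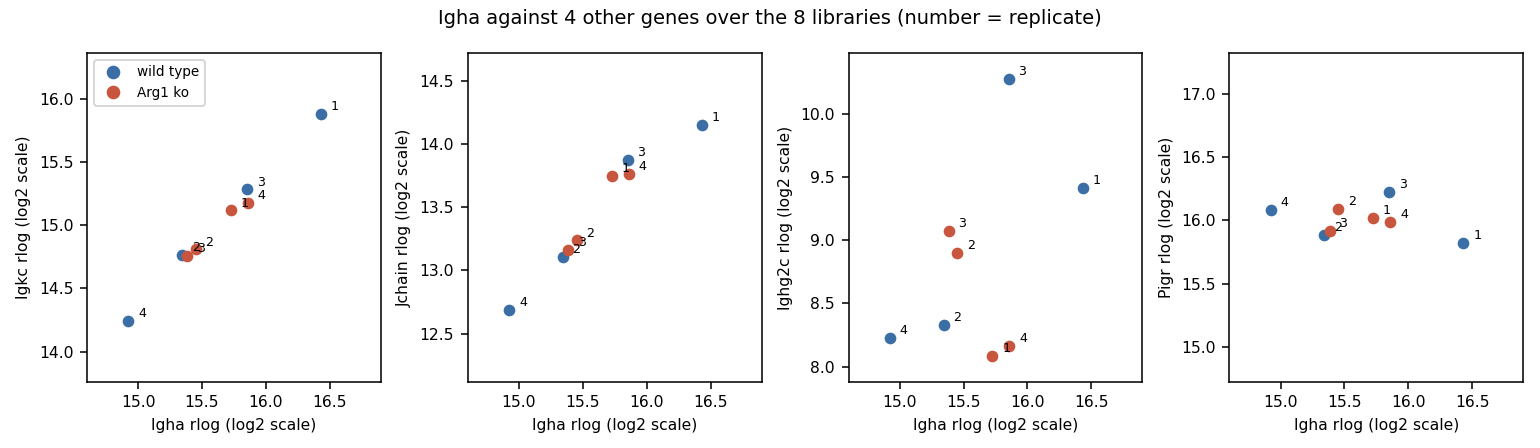
Level of Igkc, Jchain, Ighg2c and Pigr (rlog, vertical axes) against that of Igha (rlog, horizontal axis) in the 4 wild type and 4 Arg1 ko libraries. Igkc and Jchain rise with Igha along a narrow line (r of 0.996 and 0.970), while Ighg2c scatters and Pigr stays nearly level.

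Among the 5 genes whose pattern over the 8 libraries was most like that of Igha, leaving out immunoglobulin genes, were Eaf2, an elongation factor partner (r = 0.982), Jchain (0.970), Cyp2r1, a vitamin D hydroxylase (0.967), and Rbm12b1 (0.966), out of 14406 candidates. Among all genes, Igkc ranked 1, Eaf2 2 and Jchain 3 in likeness to Igha. Most like Pigr were Nuak1 (r = 0.993), Bcl7a (0.984), Ldlrad4 (0.980), Rin3 (0.976) and Xkr4 (0.968). These coefficients were selected as the highest of many over 8 points that share libraries, and they carry no test.

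Genes that mark plasma cells, the antibody-secreting end stage of B cells, were next set beside the antibody genes. Of 20 listed, 20 were tested, 7 were higher and 13 lower in Arg1 ko, and 0 passed the test, with a median difference of -0.06. The 4 of highest mean were Txndc5 (difference -0.01), Sdc1 (-0.12), Xbp1 (-0.07) and Cd38 (-0.22), of which Sdc1 and Xbp1 are also made by epithelial cells. Cd38 was the only gene of the 20 for which the genotypes did not overlap, beside 4.03% of all genes tested. Mzb1, a chaperone of antibody assembly, Derl3, which clears misfolded proteins from the endoplasmic reticulum, and Tnfrsf17, the receptor BCMA, were chosen after their values were seen because they follow Igha, with r of 0.958, 0.957 and 0.873. In wild type 1 they lay 0.73, 0.61 and 0.68 above their mean over the 8 libraries, and in wild type 4 they lay 0.71, 0.71 and 0.60 below it. These values describe that choice and add nothing to it. Over the whole list, 16 of 20 had an r with Igha above 0 and 4 below, with a median of 0.70 beside 0.00090 over all genes tested. Those below 0 were Ell2 (-0.70), Txndc5 (-0.41), Prdm1 (-0.36) and Irf4 (-0.13), and Sdc1 stood at 0.01. The mean deviation of all 20 reached 0.28 in wild type 1, fell to -0.31 in wild type 4 and lay within -0.11 to 0.13 in the other 6. The log2 of their summed level was 15.32, 15.31, 15.11 and 15.12 in wild type and ran from 15.06 to 15.13 in Arg1 ko, so by this sum wild type 4 was not the lowest.

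Genes of some other immune cells also followed the order of Igha. The r with Igha was above 0 for 10 of 10 T cell genes (median 0.71), 10 of 10 macrophage genes (median 0.65) and 8 of 8 antibody receptor genes (median 0.70). Over all genes tested, 8199 of 16379 had an r above 0. The neutrophil list did not follow, with 4 of 8 above 0 and a median of -0.0083. Its mean deviation was highest in wild type 2 (0.77). Cd2, a T cell adhesion receptor, and Fcgr4, an IgG receptor, reached 0.874 and 0.892, as high as Tnfrsf17 (named after their values were seen). The mean deviation in wild type 1 and wild type 4 was 0.28 and -0.64 for the T cell list, 0.23 and -0.31 for the macrophage list and 0.30 and -0.32 for the receptor list. These libraries were thus high and low for several immune cell lists and not for plasma cell genes alone, and the part of any of them in the spread of the antibody genes was not tested.

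Markers of B cells before the plasma cell stage followed Igha in part. Their r with Igha was above 0 for 15 of 16, with a median of 0.36. Their mean deviation was lowest in wild type 4 (-0.40), but highest in the library labelled wild type 3 (0.98). Of 17 listed, 16 were tested, 4 were higher and 12 lower in Arg1 ko, and 0 passed, with a median of -0.17, which became 0.06 without the library labelled wild type 3. Cd22 was the only marker to pass in that comparison (0.58, limma adjusted p = 0.0394), in which 6.18% of all genes passed. In the library labelled wild type 3, 14 of the 16 were at their highest. Cr2, the complement receptor of follicular B cells, lay 1.86 above its mean there, Pax5, the B cell identity factor, 1.67, and Ms4a1, which encodes CD20, 1.33 (named after their values were seen). The IgD and IgM heavy chain genes Ighd and Ighm, carried on the surface of B cells that have not switched class, lay 1.35 and 0.93 above theirs. The log2 of the summed B cell markers was 10.49 in that library, 9.45 to 9.97 in the other 3 wild type libraries and 9.70 to 9.85 in Arg1 ko, and none of the markers tested was listed at 0 in every library. Thus the library with the highest IgG messengers also had the highest B cell markers, and their part in the IgG values was not tested.

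**Figure D5:**
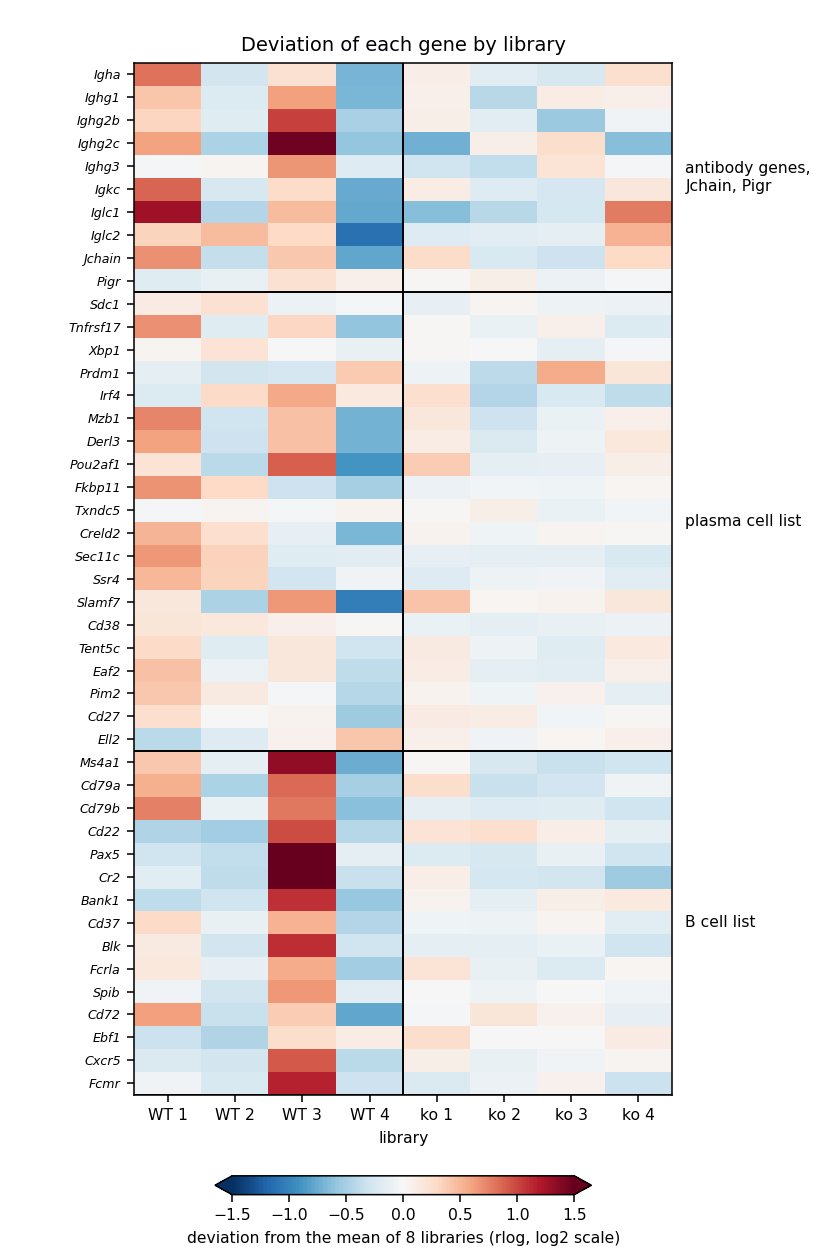
Deviation of each gene from its mean over the 8 libraries (log2 scale, colour) for the 10 genes, 20 plasma cell genes and 15 B cell genes, with libraries in columns. Igha, Igkc, Jchain and several plasma cell genes are high in wild type 1 and low in wild type 4, and the B cell genes and IgG genes are high in the library labelled wild type 3.

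None of the other constant region genes passed the test. Ighm, for IgM, stood at 8.37 ± 0.69 in wild type and 8.32 ± 0.10 in Arg1 ko (SD, n = 4 each), and Ighd at 5.07 ± 0.78 and 4.57 ± 0.27. Their differences were -0.05 and -0.50, and that of Iglc3 was -0.26 (limma adjusted p from 0.561 to 0.943). Ighe, for IgE, and Iglc4 were below the minimum for testing.

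Signals for class switching and for plasma cell survival included cytokines and receptors that steer switching to IgA or to IgG subclasses. Of 23 listed, 17 could be tested, 7 were higher and 10 lower, and 0 passed, with a median of -0.0079. The members of smallest unadjusted p were Ifngr1, a chain of the interferon gamma receptor (-0.23), Cd40 (-0.20), Stat6 (0.13) and Smad3 (0.15). Of 10 germinal centre genes, 8 could be tested, 6 were higher and 2 lower, and 0 passed, with a median of 0.17. Those of highest mean were the death receptor gene Fas (-0.36), Ung, which acts in switching (-0.02), Bcl6, the germinal centre regulator (0.29), and S1pr2 (0.11). With the library labelled wild type 3 left out, the median was 0.31 and Fas passed at -0.45 (limma adjusted p = 0.0405). No other gene of this list passed there, while 6.18% of all genes did.

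Chemokines, receptors and adhesion molecules listed for plasma cell and B cell homing numbered 15. Of these, 8 were higher and 7 lower, and 0 passed, with a median of 0.02. Cxcl13, which draws B cells into follicles, read 9.02, 9.17, 9.01 and 9.52 in wild type and 8.44, 8.66, 8.56 and 8.62 in Arg1 ko. The genotypes did not overlap for it, the only such gene of the 15, beside 4.03% of all genes tested. Its difference was -0.61 (SE 0.13, limma adjusted p = 0.522 with all 8). Cxcl13 passed when the library labelled wild type 3 was left out, with -0.67 (limma adjusted p = 0.0345). It was the only gene of the 15 to do so, while 6.18% of all genes passed. Others of small p were Ccl20 (-0.37), Ccl25 (0.21) and Cxcr3 (0.30).

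Regulators of Pigr and genes of the route through the epithelial cell numbered 26, of which 25 were tested, 9 higher and 16 lower, and 0 passed, with a median of -0.09. Rab17, a small GTPase of epithelial transcytosis, read 10.04, 9.996, 9.22 and 9.72 in wild type and 9.12, 9.31, 9.18 and 9.08 in Arg1 ko. The library labelled wild type 3 was the only wild type library within the Arg1 ko range for Rab17. The difference was -0.57 (SE 0.17, limma adjusted p = 0.522), and it was -0.74 and passed without that library (limma adjusted p = 0.0284). Rab17 was the only gene of this list to pass there, while 6.18% of all genes passed. Nfkb1, a subunit of NF-kappa B, which raises Pigr transcription, differed by 0.28, and the receptor genes Il4ra and Tnfrsf1a by -0.21 and -0.17, none past the test (limma adjusted p = 0.522 each). Il4ra was the only gene of the 25 tested for which the genotypes did not overlap, beside 4.03% of all genes tested.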

How the data were processed

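The values analysed are log2 values (rlog) that the authors deposited for every gene in 4 wild type and 4 Arg1 ko libraries. DESeq2 1.16.1, featureCounts of Subread 1.5.3, STAR 2.5.2b and BWA 0.7.14-r1136 are named with the build GRCm38, per the submitters' processing notes. The order of these tools, the annotation they used and whether counting used strand are not given in the sources. Per the labels' protocols, 1000 ng of total RNA went into a stranded mRNA kit. The table keeps no counts, so depth is unknown, and shrinkage draws weakly expressed genes toward their mean.

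Each column was matched to its sample by description, and 0 columns were left unused. Replicate numbers follow the order of deposit. The labels speak of 8 mice, and p-values reflect the spread between them. The closest pair of libraries was 23.8 apart (Euclidean distance), so none was treated as a duplicate. Of the 53465 gene identifiers 53274 were named with GENCODE vM21, which also gave coordinates, lengths and sequences. The 16380 genes that varied and had a mean of 3 or more were fitted in limma 3.58.1 (R 4.3.3) with a prior that follows the mean, two-sided, with Benjamini-Hochberg adjustment over all of them at 0.05; the fit was tested on simulated data. Single genes and ratios were compared by exact permutation over 70 assignments, and relations over 40320 pairings, with scipy 1.17.1. Lengths were those of the shortest constant region transcript, or the longest coding one for Jchain and Pigr.

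The genes examined and the lists of pathway and cell type genes were chosen with earlier results of these data known. Named from each list were the 4 of smallest unadjusted p or, for cell types, of highest mean, and the 5 genes most like Igha and Pigr by Pearson's r; a gene that this names and a B cell marker are not reported here. Alternatives were no filter, a minimum of 5, aligned medians, quantile normalisation, array weights, other moderation, an adjusted p of 0.1 and leaving out each library. Lengths from all annotated exons were added after seeing the data.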

Additional observations from a re-analysis of the deposited data

Results flagged for a closer look

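In 38 groups of 4 values, 5 had 1 library far from the other 3 by Dixon's gap test, which chance gives in about 1 group in 20. The ratios share their genes, so these groups are not independent. Ighg1 was low in Arg1 ko 2, at 7.58, with the next at 8.06. Iglc2 was low in wild type 4, at 6.82, with the next at 8.24, and high in Arg1 ko 4, at 8.46, with the next at 7.80. The Igha to Ighg3 ratio was high in wild type 1, at 12.75, with the next at 11.60. The Igha to Jchain ratio was low in the library labelled wild type 3, at 1.98, with the next at 2.24.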

How the results depend on the processing

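No gene of the 10 passed under the other filters, moderations or scalings or without any 1 library. With limma's array weights, 10836 genes were called; the weight was 16.4 for wild type 2 and 0.135 to 0.304 for wild type 1, 3 and 4. Among these, Igha differed by 0.30 (limma adjusted p = 0.0459, up to 0.987 over the other alternatives) and Jchain by 0.41 (limma adjusted p = 0.0169, up to 0.991). With those weights Igha turned sign and Jchain kept its sign. The others that turned sign were Ighg1 at 0.18, Ighg2b at 0.026, Ighg2c at 0.095, Igkc at 0.23, Iglc1 at 0.46 and Iglc2 at -0.35. Quantile normalisation gave 0.028 for Igha, 0.038 for Igkc, -0.060 for Iglc2, -0.0099 for the Igha to Igkc ratio and 0.098 for the Igkc to Iglc2 ratio. With medians aligned, Iglc2 was at -0.021, Jchain at -0.0082 and Pigr at -0.028. The cause of these changes was not tested.

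Leaving out 1 library at a time moved Igha between -0.27 and 0.23, Ighg1 between -0.31 and 0.12, Igkc between -0.35 and 0.20, Iglc1 between -0.57 and 0.11, Iglc2 between -0.36 and 0.17, Jchain between -0.24 and 0.25 and Pigr between -0.060 and 0.076. Ighg2b, Ighg2c and Ighg3 stayed below 0. The Igha ratio to Ighg1 ran from -0.084 to 0.18 and to Pigr from -0.30 to 0.29, and that of Igkc to Iglc1 from -0.028 to 0.42 and to Iglc2 from -0.34 to 0.080. Genes called ran from 0 to 1012, the highest without the library labelled wild type 3.

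The relation of Igha to Igkc kept an r of 0.993 to 0.999 and that to Jchain 0.951 to 0.987. It ran from 0.677 to 0.867 for Ighg1, 0.573 to 0.876 for Ighg2b, 0.741 to 0.968 for Iglc1, 0.357 to 0.845 for Iglc2 and -0.598 to 0.240 for Pigr. After quantile normalisation r was 0.773 for Ighg1 and 0.0608 for Pigr, and without wild type 1 and 4 it was 0.662 for Ighg1, 0.696 for Iglc1 and 0.607 for Pigr. With exon-union lengths the mean Igha share was 96.1%. No paired analysis was possible because the labels give each library its own sample number and the replicate numbers only follow the order of deposit. With 4 libraries a group and unknown depth, differences inside the intervals given were not excluded.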

Other observations

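The genotype differences of receptors that bind antibodies were not given above. Of 10 listed, 8 could be tested, and 0 passed in limma. At an unadjusted p under 0.05 there were 0 of 8, beside 9.1% of all genes tested. A count of 0 among 8 genes cannot set this list apart from that background. The differences, Arg1 ko minus wild type, were above 0 for 4 receptor genes and below 0 for 4, and their median was 0.04. Fcgrt, the neonatal Fc receptor, which carries IgG across epithelia, stood at 11.76 ± 0.28 in wild type and 11.50 ± 0.07 in Arg1 ko (SD, n = 4 each). Trim21, a cytosolic antibody receptor, differed by 0.16, Fcgr1, the high-affinity IgG receptor, by 0.20 and Fcgr2b, the inhibitory one, by 0.10.

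Beside the antibody genes, 5 of 5 red blood cell genes were lower in Arg1 ko, with a median of -0.88, and 8 of 9 fibroblast genes higher, with a median of 0.30. None of these passed the test with all 8 libraries (smallest limma adjusted p 0.522). With the library labelled wild type 3 left out, when 6.18% of all genes passed, 5 of 5 red blood cell genes passed as lower, with a median of -1.32, and 3 of 9 fibroblast genes as higher. These 3 were the collagen genes Col1a1 (1.01), Col1a2 (0.68) and Col3a1 (0.83).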
